A study of Mus musculus with 45 samples.

Results

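The protocadherins measured here were the 70 genes of the count table whose Ensembl identifier carries a mouse symbol beginning with Pcdh, out of 54532 genes in all. A gene was kept when its mean level over the 45 libraries was at least 0.1 CPM (the counts of a gene scaled to the TMM-adjusted total of its library), and 63 of the 70 passed. The kept genes were 10 of 14 in the Pcdha cluster, 20 of 22 in the Pcdhb cluster, 22 of 22 in the Pcdhg cluster and 11 of 12 single genes that lie outside these clusters. Pcdha1, Pcdha4, Pcdha7, Pcdha8, Pcdhb9, Pcdhb10 and Pcdh15 fell short. Pcdhb1 (0.114 CPM) lay just inside the limit and Pcdhb10 (0.0916 CPM) just outside it.

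The organoids came from R1 cells, a wild-type mouse embryonic stem cell line, seeded in Matrigel and grown clonally in N2B27, a serum-free medium that favours neural fates. At day 2 the medium was exchanged for N2B27 alone (untreated) or N2B27 with all-trans retinoic acid (RA), and organoids were collected at day 2 and then at 8 h, at 18 h and every 12 h up to 78 h. The series text gives the RA dose as 250 nM, whereas the protocol attached to the samples gives 250 µM. Each of the 15 groups had 3 libraries, labelled as biological replicates of 1 cell line, and each library was bulk RNA, so that fewer cells of a type and less RNA per cell cannot be told apart.

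Protocadherins are the largest branch of the cadherin superfamily of calcium-dependent adhesion proteins. In the clustered families each variable exon has its own promoter. In Pcdha and Pcdhg the variable exon is spliced to constant exons that the cluster shares, whereas a Pcdhb gene is a single exon. A neuron uses a small set of the variable (alternate) isoforms, a choice that involves DNA methylation, CTCF and cohesin, while the C-type isoforms (Pcdhac1, Pcdhac2, Pcdhgc3, Pcdhgc4 and Pcdhgc5) are used more widely. Matching sets bind in trans and let neurites of 1 cell avoid each other. The single genes, most of them of the delta family, are expressed regionally in the embryo and act in cell sorting, migration and axon growth.

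All 3 clusters lie on the plus strand of chromosome 18 in GRCm38, with Pcdha at 36930184 to 37187661, Pcdhb at 37264938 to 37524479 and Pcdhg at 37661793 to 37841873. A Pcdha gene had 494 to 4606 exonic bases of its own and a Pcdhg gene 1570 to 4614. The rest of each was shared with other members of its cluster or with other genes on the same strand. Pcdha4, with 494, also overlaps Gm42416 on that strand. A read from the constant exons cannot be tied to 1 isoform, and the strand and multiple-overlap settings of the counting are not given in the sources used here. Pcdhgc3 overlaps the opposite-strand gene BC037039 over 1559 bases. Single-end reads of 75 bases from a directional kit were counted, and the libraries held 17298632 to 39688686 counts with a median of 25923745. The markers of neural progenitors (Sox1, Sox2, Sox3, Pax6 and Nes) were detected in every group, and their summed level ran from 344 CPM in the lowest library (RA, 8 h) to 1000 CPM in the highest (RA, 78 h). Libraries also stood apart in 4 Y-linked genes (Ddx3y, Eif2s3y, Kdm5d and Uty), whose mean was 1.22 to 3.65 CPM in 6 libraries (replicate 3 of RA at 8 h, the 3 untreated libraries at 30 h and RA replicates 1 and 3 at 30 h) and 22.9 to 89.5 CPM in the other 39.

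From day 2 to 78 h the protocadherins rose in both arms. Libraries numbered 10000 or more in their titles are called the later series here, and the others the earlier one. No label gives this split as a batch. Of the day 2 libraries only replicate 3 was, like the 78 h libraries, of the later series. The summed level of the kept Pcdhg genes was 23.3, 22.3 and 28.1 CPM in the day 2 libraries, 140, 145 and 144 CPM in the untreated 78 h libraries and 104, 122 and 119 CPM in the RA-treated 78 h libraries. The kept Pcdhb genes together had 1.08, 1.5 and 1.37 CPM at day 2, against 38.3, 35.3 and 33.7 CPM in untreated and 40.6, 41.6 and 43.1 CPM in RA-treated organoids at 78 h. For the kept Pcdha genes these sums were 0.124, 0.3 and 0.415 CPM, 6.51, 6.27 and 6.72 CPM, and 3.88, 4.4 and 4.94 CPM. In all 3 clusters the 78 h libraries of both arms lay above every day 2 library.

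**Figure D1:**
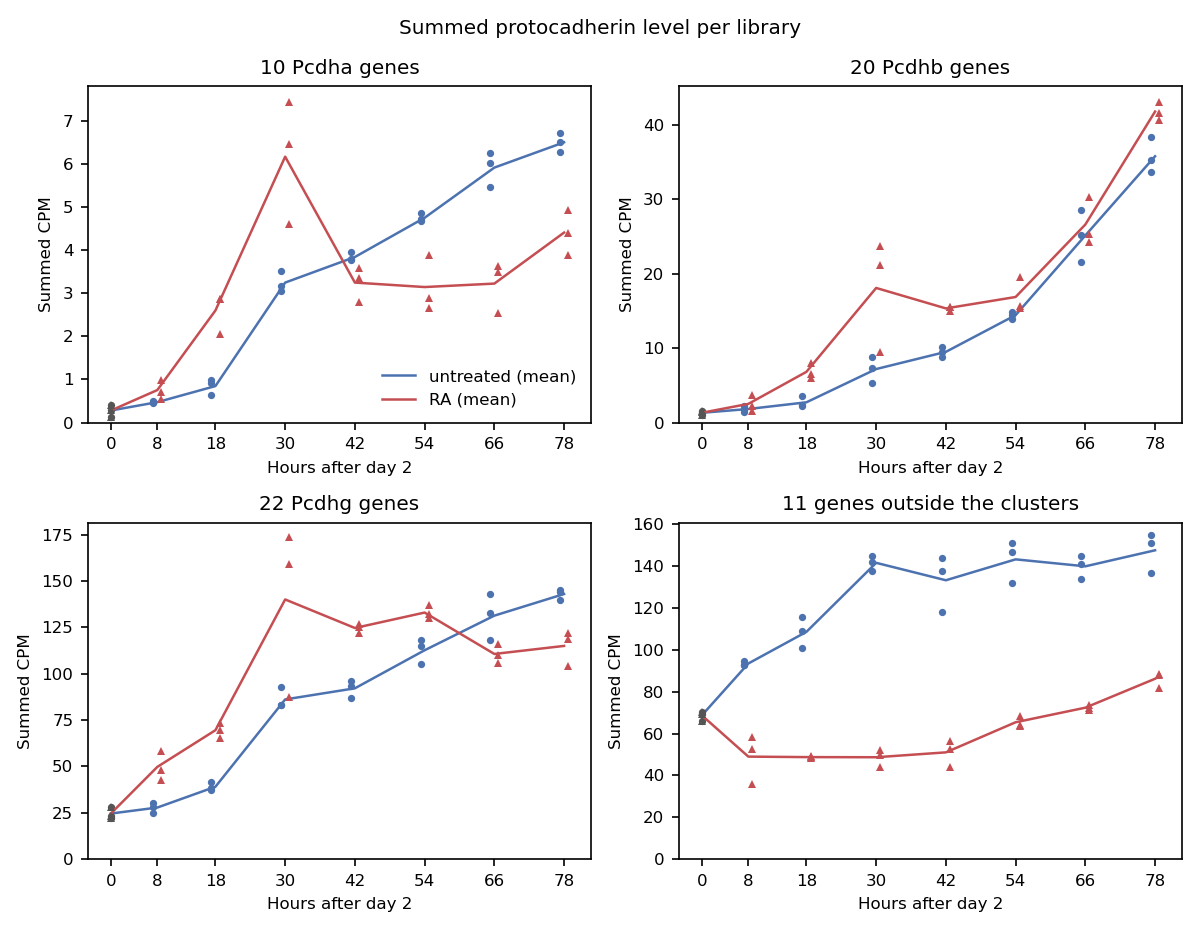
Summed level of the kept genes of each cluster, in CPM on a linear axis, against hours after day 2, with a point for each library and lines through the group means of untreated (n = 3) and RA-treated (n = 3) organoids. The Pcdhg sum rises from 23.3, 22.3 and 28.1 CPM at day 2 to above 100 CPM in each 78 h library, and the RA-treated libraries lie above the untreated ones at 8, 18, 42 and 54 h, overlap with them at 30 h and lie below them at 66 and 78 h.

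Each gene was tested with edgeR's quasi-likelihood test across all genes that passed a filter on low counts, and a call required both a log2 fold change (log2FC) beyond 1 in either direction and a p, adjusted by the Benjamini-Hochberg method, under 0.01. Between untreated 78 h and day 2, 53 of the 63 protocadherins could be tested, of which 49 were called higher and 1 lower, in a comparison that called 34.0% of all genes tested (20.3% higher and 13.6% lower). Of the 53, 37 passed the filter through the 78 h libraries alone, so the count of called genes partly follows from the filter, and 13 of the 49 higher passed it in both groups. Without the filter, the 3 untreated 78 h libraries lay above the 3 day 2 libraries for 58 of 63 protocadherins, against 37.0% of all genes at 0.1 CPM or more, and the median log2FC was 3.29 for the 63 against 0.08 for all genes. In RA-treated organoids at 78 h, 47 of 53 tested were called higher and 1 lower (37.4% of all genes called, 22.9% higher and 14.5% lower), with a median of 2.98 over the 63 and 0.05 over all genes. Here 36 of the 53 passed the filter through the RA-treated 78 h libraries alone, and 12 of the 47 higher passed it in both groups. These 2 comparisons share the day 2 libraries.

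Pcdhb and Pcdha genes started from low counts. Pcdhb16 had 1 count over the 3 day 2 libraries and 70 to 97 counts in each untreated 78 h library, or 0.0138 ± 0.0239 CPM (SD, n = 3) against 2.68 ± 0.772 CPM, with a log2FC of 7.12 ± 0.601 (SE) and an edgeR adjusted p of 1.5e-08. Pcdhb22, the Pcdhb gene nearest to the Pcdhg cluster, went from 0.373, 0.15 and 0.374 CPM to 6.29, 8.03 and 7.19 CPM in untreated organoids, a 23.0-fold difference with an edgeR adjusted p of 6e-11. Pcdhb11 went from 0.0691 ± 0.0863 CPM to 4.62 ± 0.519 CPM (SD, n = 3). In the Pcdha cluster, Pcdha11 (the gene ENSMUSG00000007440, 1 of 2 identifiers with this symbol) had 0 counts in the 3 day 2 libraries and 33 to 39 counts in each untreated 78 h library, which is at least 8.61-fold higher when 3 counts in each library are taken as the floor. None of these day 2 and 78 h values overlapped.

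The exceptions to the rise were few. Pcdhga1, the first gene of the Pcdhg cluster, had 4.14, 4.2 and 4.53 CPM at day 2 and 3.81, 3.36 and 3.68 CPM in untreated organoids at 78 h, a log2FC of -0.25 that was not called. Its share of the Pcdhg sum fell from 17.6% ± 1.37 to 2.53% ± 0.205 (SD, n = 3) with no overlap between libraries. Pcdh10, a delta protocadherin of axon pathways, was the single gene called lower in untreated organoids, from 1.99, 1.85 and 2.16 CPM to 0.36, 0.416 and 0.223 CPM (log2FC -2.59 ± 0.311 SE, edgeR adjusted p 1.1e-06). Pcdh1, an epithelial and endothelial adhesion protein, was called lower in RA-treated organoids, from 49.2, 51.4 and 52.9 CPM to 19.6, 18.7 and 19.2 CPM (log2FC -1.42 ± 0.0673 SE, adjusted p 1.3e-09).

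With RA, the Pcdhg sum was higher up to 54 h, except for an overlap at 30 h, and lower at 66 and 78 h, where the 19 variable genes alone overlapped between the arms. At 18 h the Pcdhg sum was 37.4, 41.4 and 38.3 CPM in untreated and 73.6, 65.2 and 69.8 CPM in RA-treated organoids. Each of the 22 Pcdhg genes was tested at 18 h and had a positive log2FC, from 0.27 (Pcdhgc3) to 2.07 (Pcdhgb6), 13 were called higher, and for 21 of the 22 the 3 RA-treated libraries lay above the 3 untreated ones. Over all families, 37 protocadherins were tested at 18 h, 18 were called higher and 3 lower, where 10.9% of all genes tested were called, 8.17% higher and 2.76% lower. Of the 18, 12 passed the filter on low counts in both arms. Without the filter, the RA-treated libraries lay above the untreated ones for 37 of the 63 protocadherins, against 27.8% of all genes at 0.1 CPM or more, and the median log2FC was 1.04 over the 63 against 0.03 over all genes.

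The genes called in the Pcdhg cluster at 18 h included alternate isoforms of both types. Pcdhga4, named here after its values were seen, had 0.857, 0.825 and 0.8 CPM in untreated and 3.95, 2.39 and 2.7 CPM in RA-treated organoids, and the arms did not overlap (log2FC 1.87 ± 0.249 SE, edgeR adjusted p 3.9e-05). Pcdhga7 had 1.67, 2.52 and 1.92 CPM against 3.39, 4.29 and 3.35 CPM, a log2FC of 0.87 ± 0.195 (SE) that was below the fold limit of the call. Pcdhga11 had 3.93, 2.64 and 3.49 CPM against 3.99, 4.74 and 4.52 CPM, and Pcdhga1 had 3.97, 5.94 and 4.67 CPM against 6.38, 6.35 and 6.09 CPM. Neither of these reached the call, with adjusted p of 0.047 and 0.045 by edgeR.

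The difference was present at 8 h. The Pcdhg sum was 30.2, 28.2 and 25 CPM in untreated and 42.6, 48.1 and 58.5 CPM in RA-treated organoids, with the highest value in the RA library that stood apart in the Y-linked genes. Of 21 Pcdhg genes tested at 8 h, 20 had a positive log2FC and none was called, and for 17 of the 22 the RA-treated libraries lay above the untreated ones (16.0% of all genes at 0.1 CPM or more). Over all families 29 were tested by edgeR, 0 were called higher, 1 (Pcdh1) was called lower, and 19 had an unadjusted p under 0.05, where 1.80% of all genes tested were called (1.26% higher and 0.537% lower) and DESeq2 called 2 higher and 1 lower. Without RA replicate 3, 6 protocadherins were called, where 5.10% of all genes were (3.71% higher and 1.39% lower). Those higher were Pcdhgb2 (log2FC 2.15), Pcdhgb6 (1.94), Pcdhgb5 (1.34) and Pcdh19 (1.19), and those lower were Pcdh1 (-1.31) and Pcdh18 (-1.11), the Pcdhg names being given after their values were seen.

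At 30 h the RA-treated libraries disagreed with each other. RA replicates 2 and 3 were of the later series, whereas RA replicate 1 and the untreated libraries were of the earlier one. The Pcdhg sum was 82.9, 82.9 and 92.6 CPM in untreated organoids and 159, 87.2 and 174 CPM in RA replicates 1, 2 and 3, and RA replicate 2 was the library at 30 h whose Y-linked genes were in the higher range. The Pcdhb sum was 7.37, 5.37 and 8.83 CPM against 21.1, 9.44 and 23.7 CPM, with the same library lowest of the 3. With all libraries, 48 protocadherins were tested, 3 were called higher and 2 lower (8.45% of all genes called, 5.98% higher and 2.48% lower). Without RA replicate 2, 24 were called (13.5% of all genes called, 8.96% higher and 4.54% lower), of which 22 were higher, namely 10 of 22 tested Pcdhg genes, 10 of 16 tested Pcdhb genes, 1 Pcdha gene and 1 single gene. Without any 1 of the other 5 libraries, 3 were called. The part of this library in the 30 h result was not tested beyond these fits.

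At 42 h the Pcdhg sum remained higher with RA, at 125, 122 and 127 CPM against 93.3, 96.1 and 87 CPM, and at 54 h it was 130, 132 and 137 CPM against 118, 115 and 105 CPM. Untreated replicate 3 at 54 h and all libraries at 66 and 78 h were of the later series. At 66 h the order had turned, with 116, 106 and 110 CPM in RA-treated and 133, 118 and 143 CPM in untreated organoids, and at 78 h the sums were 104, 122 and 119 CPM against 140, 145 and 144 CPM. The arms did not overlap in any of these 4 sums. Without the C-type genes they overlapped at 54 h (61, 62.8 and 66.1 CPM with RA against 62.1, 52.9 and 47.7 CPM), at 66 h (58, 48.1 and 50.3 CPM against 62.8, 51 and 58.6 CPM) and at 78 h (51.8, 57.7 and 59.8 CPM against 64.6, 58.7 and 59.6 CPM), so the separation of the late sums rests on the C-type genes. Few single members reached the call at these times. Of 22 tested Pcdhg genes, 2 were called higher at 42 h (Pcdhga3 and Pcdhga9, named after their values were seen) and 0 were called by edgeR at 54, 66 or 78 h. At 78 h, 7 of the 22 had a positive and 15 a negative log2FC, from -0.73 to 0.48.

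Over all families, 3 protocadherins were called higher and 4 lower of 45 tested at 42 h, where 12.5% of all genes were called (7.49% higher and 4.96% lower). At 54 h it was 0 and 4 of 48 (13.2% of all genes, 7.17% and 5.99%), at 66 h 2 and 3 of 57 (11.5%, 7.06% and 4.44%), and at 78 h 3 and 2 of 60 (11.7%, 7.66% and 4.03%). From 42 h on the share of protocadherins called was near or below that of all genes. None of the genes called higher at 66 h (0 of 2) or 78 h (0 of 3) passed the filter on low counts in both arms. Over the 63 genes without the filter, the median log2FC was 0.46 at 42 h, -0.01 at 54 h, -0.29 at 66 h and -0.08 at 78 h, while over all genes it lay between -0.03 and 0.02.

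The C-type gene Pcdhgc3 took a larger share of the Pcdhg sum after 30 h in both arms. It had the highest level of the cluster at 78 h, 21.8 CPM per kb of its own exonic bases in untreated organoids, where Pcdhga11 had 2.6 and Pcdhga1 had 1.11. Pcdhgc3 went from 5.39, 5.3 and 7.64 CPM at day 2 to 68.0, 78.5 and 74.1 CPM in untreated 78 h libraries, an 11.9-fold difference (log2FC 3.58 ± 0.106 SE, edgeR adjusted p 3.3e-14). Its share of the Pcdhg sum was 24.7% ± 2.18 at day 2, 19.8% ± 1.69 in untreated organoids at 30 h, 40.7% ± 2.99 at 42 h and 51.3% ± 2.77 at 78 h (SD, n = 3). With RA the share was 25.8% ± 6.95 at 30 h, 41.5% ± 2.79 at 42 h, 47.3% ± 0.485 at 54 h and 45.7% ± 1.5 at 78 h. The summed level of the 19 variable Pcdhg genes reached 63.1, 63.2 and 73.9 CPM in untreated organoids at 30 h and was 64.6, 58.7 and 59.6 CPM at 78 h. Between these times it was 53.1, 50.4 and 44.2 CPM at 42 h, 62.1, 52.9 and 47.7 CPM at 54 h and 62.8, 51 and 58.6 CPM at 66 h, so that the variable genes also rose from 42 to 78 h, with no overlap, and their high value at 30 h is that of the 3 untreated libraries with low Y-linked genes.

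**Figure D2:**
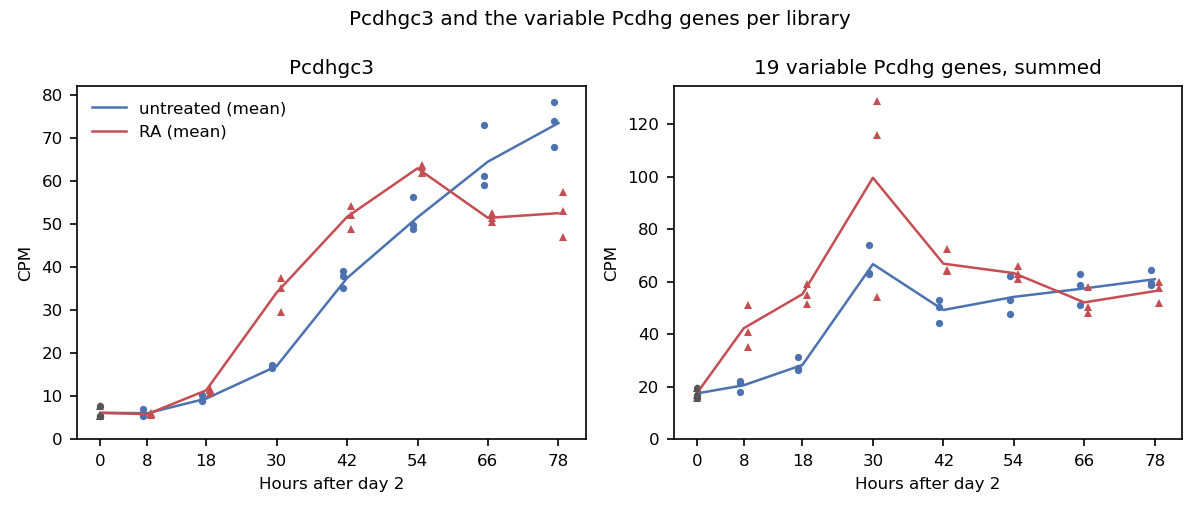
Level of Pcdhgc3 and summed level of the 19 variable Pcdhg genes, both in CPM, against hours after day 2 for untreated and RA-treated organoids, with a point for each library (n = 3) and lines through the means. In untreated organoids Pcdhgc3 rises up to 78 h while the variable genes have 63.1, 63.2 and 73.9 CPM at 30 h, fall to 53.1, 50.4 and 44.2 CPM at 42 h and have 64.6, 58.7 and 59.6 CPM at 78 h, and the RA-treated libraries lie above the untreated ones for the variable genes at 8 and 18 h.

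At 18 h the variable genes differed between the arms by more than Pcdhgc3 did. The variable sum at 18 h was 26.4, 31.2 and 27.2 CPM in untreated and 59.1, 51.6 and 55.1 CPM in RA-treated organoids, whereas Pcdhgc3 had 9.16, 8.87 and 10.2 CPM against 11.5, 10.8 and 11.7 CPM. The share of Pcdhgc3 was 24.2% ± 2.6 without and 16.3% ± 0.605 with RA (SD, n = 3), with no overlap. At 30 h Pcdhgc3 had 17.1, 17.3 and 16.5 CPM in untreated and 35.2, 29.5 and 37.5 CPM in RA-treated organoids, a 2.0-fold difference (log2FC 1.00 ± 0.116 SE, adjusted p 0.00097) at the very limit of the fold, which was lost without any library but RA replicate 2 and with DESeq2. It was lower with RA at 78 h, with 47.1, 57.6 and 53.0 CPM against 68.0, 78.5 and 74.1 CPM and a log2FC of -0.47 ± 0.0761 (SE), which does not reach the fold limit.

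The other C-type genes were called at 18 h. Pcdhac2 had 0.361, 0.165 and 0.187 CPM in untreated and 0.651, 0.701 and 1.13 CPM in RA-treated organoids (log2FC 1.84 ± 0.418 SE, edgeR adjusted p 0.0024), Pcdhgc4 had 0.587, 0.578 and 0.293 CPM against 1.09, 1.24 and 1.22 CPM (1.35 ± 0.329, adjusted p 0.0038), and Pcdhgc5 had 1.22, 0.743 and 0.667 CPM against 1.91, 1.57 and 1.78 CPM (1.05 ± 0.273, adjusted p 0.0056). In none of the 3 did the arms overlap. These calls rest on few counts. Without untreated replicate 3 none of them was made, with log2FC of 1.65, 1.01 and 0.84. The call of Pcdhac2 was also lost without RA replicate 3 (1.56), that of Pcdhgc4 without RA replicate 2 or 3 (1.31 and 1.32) and with DESeq2 (1.30), and that of Pcdhgc5 without 5 of the 6 libraries in turn (0.84 to 1.12) and with DESeq2 (1.01). Pcdhac1 had 2 or 3 counts a library at 18 h and was not tested.

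In the Pcdhb cluster the RA-treated libraries lay above the untreated ones at 18 h, with a sum of 8.03, 5.94 and 6.48 CPM against 2.35, 3.63 and 2.19 CPM. Only 5 Pcdhb genes had enough counts for the test, and 3 were called higher, where 8.17% of all genes tested were. The 3 passed the filter on low counts through the RA-treated libraries alone, so their number partly follows from the filter. Pcdhb22 had 0.316, 0.454 and 0.507 CPM in untreated and 1.3, 1.11 and 1.0 CPM in RA-treated organoids (log2FC 1.39 ± 0.307 SE, edgeR adjusted p 0.002). Pcdhb3 had 0.18, 0.248 and 0.187 CPM against 0.651, 0.453 and 0.739 CPM (log2FC 1.58 ± 0.405, adjusted p 0.0052). Pcdhb6, named after its values were seen, had 0 to 3 counts in each untreated and 15 to 21 in each RA-treated library. The call of Pcdhb22 was lost without replicate 1 of either arm (1.23 and 1.28), and that of Pcdhb3 without replicate 1 or 3 of either arm (1.43 to 1.53). The Pcdhb3 call was also lost with DESeq2 (1.57) and with the replicate number as a block (1.59).

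The RA-treated Pcdhb sum was also above the untreated one, without overlap, at 30 h, at 42 h (15, 15.5 and 15.5 CPM against 10.2, 9.43 and 8.87 CPM), at 54 h (19.6, 15.4 and 15.6 CPM against 14.9, 13.9 and 14.5 CPM) and at 78 h (40.6, 41.6 and 43.1 CPM against 38.3, 35.3 and 33.7 CPM), while at 66 h the arms overlapped. Of 19 Pcdhb genes tested, 0 were called by edgeR at 66 h and 1 (Pcdhb15) at 78 h, so the sums of the 2 ends of the cluster at 78 h are a description. The 12 kept genes Pcdhb11 to Pcdhb22 summed to 34, 35.1 and 35.3 CPM with and 29.8, 26.9 and 25.1 CPM without RA, whereas the 8 kept genes of Pcdhb1 to Pcdhb10 summed to 6.66, 6.45 and 7.88 CPM against 8.45, 8.39 and 8.56 CPM. The arms did not overlap in either sum, and the directions were opposite. Among the 12, 10 had a positive log2FC at 78 h (median 0.37), and among the 8, 2 did (median -0.09). At 66 h the counts were 10 of 12 (median 0.3) and 1 of 8 (median -0.42), and at 18 h they were 11 of 12 and 8 of 8.

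**Figure D3:**
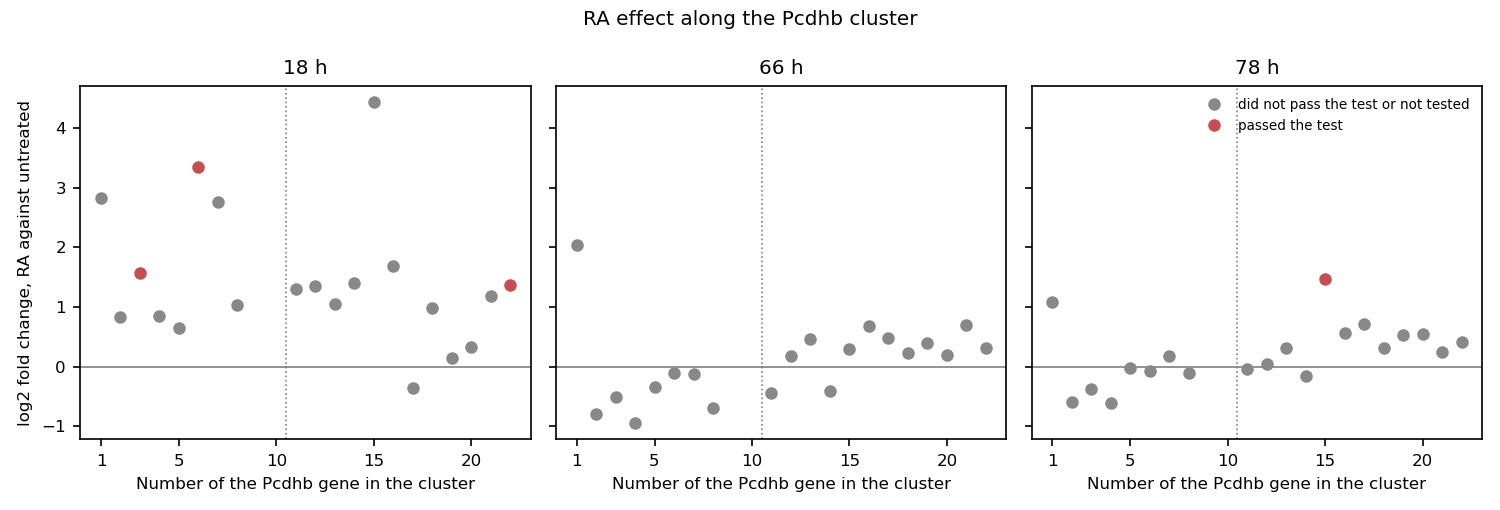
Log2 fold change of RA-treated over untreated organoids for the 20 kept Pcdhb genes in their order along the cluster, at 18, 66 and 78 h, computed without a filter on low counts, with a point for each gene, in red where it was called. At 66 and 78 h, 10 of the 12 genes from Pcdhb11 on are above 0, against 1 and 2 of the 8 before them.

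The rank correlation between a Pcdhb gene's place in the cluster and its log2FC was 0.54 at 66 h and 0.531 at 78 h (Spearman, across 20 genes), where Pearson's r was 0.28 and 0.463. Its sign was opposite earlier, with -0.235 at 18 h and a larger value of -0.484 at 30 h, followed by 0.0932 (42 h) and 0.272 (54 h). Genes of 1 cluster share the libraries and are not independent, so these values describe the libraries. Pcdhb16 was called at 42 h, with 0.0393, 0.418 and 0.18 CPM in untreated and 1.54, 0.84 and 1.18 CPM in RA-treated organoids (log2FC 2.42 ± 0.521 SE, edgeR adjusted p 0.0028), and the call was lost without untreated replicate 3 or RA replicate 1 (2.31 and 2.21). Pcdhb15, named after its values were seen, was called at 78 h, with 0.503, 0.208 and 0.251 CPM against 0.869, 0.751 and 0.945 CPM (1.46 ± 0.36, adjusted p 0.0062).

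The Pcdha cluster, the least expressed of the 3, went from higher to lower with RA earliest. Its sum was 0.993, 0.908 and 0.64 CPM in untreated and 2.87, 2.06 and 2.87 CPM in RA-treated organoids at 18 h, and 3.05, 3.17 and 3.52 CPM against 7.44, 4.6 and 6.46 CPM at 30 h. At 42 h the RA-treated libraries were below the untreated ones, with 3.36, 3.59 and 2.79 CPM against 3.77, 3.96 and 3.79 CPM. So they were at 54 h, with 3.89, 2.66 and 2.88 CPM against 4.86, 4.71 and 4.68 CPM, and at 66 h, with 3.5, 3.63 and 2.54 CPM against 6.25, 5.47 and 6.02 CPM. Among 6 Pcdha genes tested at 66 h, 2 were called lower (4.44% of all genes tested were called lower). Pcdha12 had 0.186, 0.425 and 0.143 CPM with RA against 0.906, 1.05 and 1.0 CPM (log2FC -1.92 ± 0.363 SE, edgeR adjusted p 0.0016), a call kept without any 1 library, and Pcdha3 had 0.335, 0.457 and 0.321 CPM against 1.27, 0.71 and 0.847 CPM (-1.32 ± 0.329, adjusted p 0.008), a call lost without 5 of the 6 libraries (-1.50 to -1.03). Both were also called lower at 54 h, with log2FC of -1.74 and -1.98, and each of these calls was lost without 3 or 4 of the 6 libraries in turn. At that time 5.99% of all genes tested were called lower. With DESeq2 the call of Pcdha3 was lost at both times (-2.03 at 54 h and -1.33 at 66 h). Neither Pcdha gene passed the filter on low counts in both arms at 54 h, where 2 of the 4 called protocadherins did. At 66 h Pcdha12 passed it through the untreated libraries alone.

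Among the single genes, Pcdh1 was lower with RA at each of the 7 times. At 8 h it had 70.4, 70.2 and 72.7 CPM in untreated and 28.4, 29.5 and 18.1 CPM in RA-treated organoids, and at 18 h 93.3, 78.2 and 86.5 CPM against 27.2, 29.4 and 29.6 CPM. At 42 h the values were 83.9, 93.6 and 98.1 CPM against 30.6, 30.5 and 26.7 CPM. By 78 h it had 52.3, 64.3 and 57.4 CPM in untreated and 19.6, 18.7 and 19.2 CPM in RA-treated organoids, and the arms did not overlap at any of the 7 times.

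Across the 7 times the Pcdh1 difference lay between 2.79-fold (8 h) and 3.4-fold (66 h) lower, with log2FC of -1.48 ± 0.166 (SE, edgeR adjusted p 0.0024) at 8 h, -1.57 ± 0.0668 (adjusted p 1.1e-09) at 18 h and -1.58 ± 0.0726 (adjusted p 2.5e-08) at 78 h. The call at 8 h was lost without any 1 of the untreated 8 h libraries (-1.49 to -1.47), and those from 18 h on were kept without any 1 library. The untreated mean was 51.2 ± 1.86 CPM at day 2, 103.0 ± 3.13 CPM at 30 h and 58.0 ± 6.05 CPM at 78 h (SD, n = 3), a rise and fall, whereas the RA-treated mean was 25.3 ± 6.32 CPM at 8 h, 30.6 ± 3.1 CPM at 30 h and 19.2 ± 0.424 CPM at 78 h. The change of the RA effect from 18 to 78 h was -0.03 (adjusted p 0.83).

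**Figure D4:**
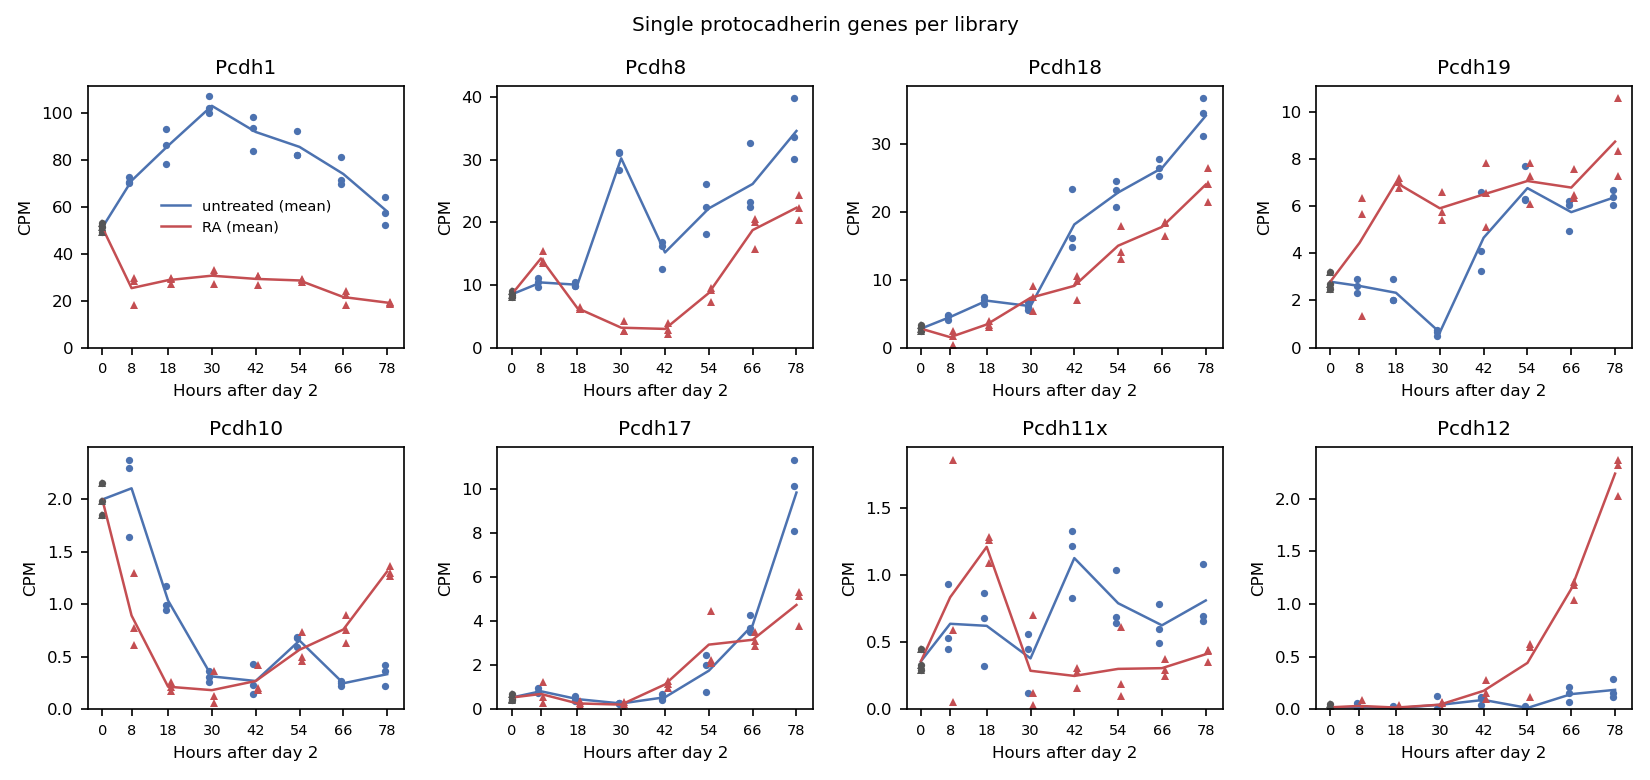
Level in CPM on a linear axis against hours after day 2 for 8 single protocadherin genes, with a point for each library of untreated and RA-treated organoids (n = 3 each) and lines through the means. Pcdh1 is lower with RA at each time, Pcdh8 is lower from 30 to 54 h, Pcdh19 is higher at 18 and 30 h, and Pcdh10 is lower with RA at 18 h and higher at 66 and 78 h.

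Pcdh8, a protocadherin of paraxial mesoderm and synapses, was lower with RA in the middle of the time course. It had 28.4, 31.1 and 31.2 CPM in untreated and 2.68, 4.17 and 2.68 CPM in RA-treated organoids at 30 h, 12.5, 16.9 and 16.2 CPM against 3.96, 2.75 and 2.24 CPM at 42 h, and 18.2, 22.4 and 26.1 CPM against 7.35, 9.59 and 9.23 CPM at 54 h. The arms did not overlap at these times, and the differences were 9.48-fold (log2FC -3.25 ± 0.213 SE, edgeR adjusted p 9.9e-05), 5.18-fold (-2.37 ± 0.188, 2.7e-06) and 2.58-fold (-1.37 ± 0.138, 1.4e-05) lower. At 8 h the RA-treated libraries were the higher ones, at 13.5, 15.4 and 13.8 CPM against 9.71, 11.1 and 10.4 CPM, a log2FC of 0.45 that was not called. The presomitic mesoderm list (8 genes) summed to 34.9 to 41.9 CPM in untreated and 33 to 61.4 CPM in RA-treated libraries at 30 h, with 1 of 5 tested called higher (Meox1, 0.109 ± 0.103 against 23.0 ± 12.8 CPM, SD, n = 3) and 1 lower. Msgn1, which marks presomitic mesoderm, was near 0 in both arms. The part of this list in the Pcdh8 result was not tested.

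Pcdh19, an X-linked delta protocadherin that pairs with N-cadherin, was higher with RA early. It had 2.93, 2.02 and 2.03 CPM in untreated and 7.21, 6.76 and 7.05 CPM in RA-treated organoids at 18 h, a 3.08-fold difference (log2FC 1.62 ± 0.156 SE, edgeR adjusted p 2.4e-06). At 30 h untreated organoids had 0.677, 0.488 and 0.766 CPM and RA-treated ones 5.74, 6.59 and 5.41 CPM, a 9.06-fold difference (3.18 ± 0.246, adjusted p 0.00018). In both comparisons the arms did not overlap, and both calls were kept without any 1 library. By 42 h untreated organoids had 3.26, 6.62 and 4.11 CPM and overlapped with RA-treated ones at 7.83, 6.57 and 5.11 CPM. The untreated values were thus lower at 30 h than at 18 or 42 h, in the 3 untreated libraries with low Y-linked genes. RA-treated values lay between 5.11 and 7.83 CPM from 18 to 42 h, so the 30 h fold rests on the low untreated values. In the RA library that stood apart at 8 h it was 1.33 CPM, where the other two had 5.66 and 6.34 CPM.

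Pcdh10 turned its direction. At 18 h it had 0.948, 0.99 and 1.17 CPM in untreated and 0.174, 0.206 and 0.261 CPM in RA-treated organoids, 4.79-fold lower with RA (log2FC -2.26 ± 0.35 SE, edgeR adjusted p 0.00014). At 66 h the values were 0.272, 0.216 and 0.251 CPM against 0.633, 0.752 and 0.893 CPM (1.62 ± 0.307, adjusted p 0.0016), and at 78 h 0.36, 0.416 and 0.223 CPM against 1.27, 1.37 and 1.3 CPM, 3.98-fold higher with RA (1.99 ± 0.292, adjusted p 0.00021). The arms did not overlap at any of the 3 times, and the RA effect at 78 h exceeded that at 18 h by 4.23 ± 0.435 on the log2 scale (adjusted p 1.1e-06). The lower values rest on 4 to 6 counts a library at 18 h and 8 to 14 at 78 h. The call at 66 h was lost without RA replicate 3 (1.48) and with DESeq2 (1.64). Markers of neurons summed to 552 to 599 CPM with and 357 to 382 CPM without RA at 78 h, with 7 of 10 called higher and 1 lower, and their part in this result was not tested.

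Among the other single genes the differences were smaller or rested on few counts. Pcdh18, which is expressed in mesenchyme and brain, had 6.95, 6.39 and 7.39 CPM in untreated and 3.86, 3.34 and 3.0 CPM in RA-treated organoids at 18 h (log2FC -1.02 ± 0.132 SE, edgeR adjusted p 3.2e-05), and was also called lower at 42 h (-1.01), but each call was lost without either of 2 libraries and under scaling by library totals (-0.90 and -0.95). Pcdh11x, an X-linked gene of the delta family, had 1.22, 1.33 and 0.829 CPM against 0.28, 0.305 and 0.157 CPM at 42 h (-2.18 ± 0.378, adjusted p 0.00071). Pcdh17, a presynaptic and axonal protocadherin, had 11.3, 8.06 and 10.1 CPM against 3.77, 5.29 and 5.11 CPM at 78 h (-1.04 ± 0.17, adjusted p 0.00043), a call lost without replicate 1 of either arm (-0.93 and -0.89). In each of these the arms did not overlap. Pcdh7, Pcdh9 and Pcdh20 were not called at any of the times at which they were tested. Pcdh7 nevertheless went from 0.39 ± 0.13 CPM at day 2 to 2.99 ± 0.337 CPM in untreated and 2.25 ± 0.357 CPM in RA-treated organoids at 78 h (SD, n = 3).

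Pcdh12, the protocadherin of endothelial cells, appeared late and with RA. Up to 30 h it had at most 2 counts a library in either arm. At 66 h it had 0.211, 0.154 and 0.0627 CPM in untreated and 1.04, 1.21 and 1.18 CPM in RA-treated organoids (log2FC 2.97 ± 0.359 SE, edgeR adjusted p 9e-05), and at 78 h 0.288, 0.149 and 0.112 CPM against 2.37, 2.32 and 2.03 CPM, a 12.7-fold difference (3.66 ± 0.315, adjusted p 3.5e-06). The arms did not overlap at either time, and both calls were kept without any 1 library. At both times Pcdh12 passed the filter on low counts through the RA-treated libraries, with 2 to 7 counts in the untreated libraries at 66 h and 4 to 8 at 78 h.

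Of the markers of endothelium, Cdh5 and Kdr were called higher with RA at 66 and 78 h. Cdh5, the cadherin of endothelial junctions, was at 0.718 ± 0.411 CPM in untreated and 9.02 ± 1.45 CPM in RA-treated organoids at 66 h, and at 0.762 ± 0.275 CPM against 24.1 ± 0.604 CPM at 78 h (SD, n = 3). Of the list of 6 (Pecam1, Cdh5, Kdr, Tek, Tie1 and Emcn), these were 2 of 4 tested at 66 h (7.06% of all genes called higher) and 2 of 5 at 78 h (7.66%). Pecam1 had 16.0 ± 2.05 against 27.1 ± 6.15 CPM, Tek 2.80 ± 0.0406 against 3.67 ± 1.08 CPM and Tie1 0.186 ± 0.0581 against 0.503 ± 0.104 CPM at 78 h, and none of these was called. The summed level of the 6 at 78 h was 18.8 to 23.2 CPM in untreated and 50.5 to 65.8 CPM in RA-treated libraries, and Emcn was at 0 counts in the untreated 78 h libraries and at 0.0324 ± 0.0343 CPM with RA. The part of endothelial cells in the Pcdh12 result was not tested.

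Of the 11 kept single genes, 8 have a promoter in the RefSeq table of GRCm38.p6 that can be shown. The 250 bases before the start of Pcdh8 (chr14:79771313-79771562, minus strand), Pcdh10 (chr3:45378148-45378397, plus strand), Pcdh17 (chr14:84443313-84443562, plus strand), Pcdh18 (chr3:49757317-49757566, minus strand) and Pcdh19 (chrX:133688994-133689243, minus strand) are shown because these genes were called between the arms. Capitals mark a CCAAT box, read as CCAAT or, on the other strand, ATTGG.
Pcdh8: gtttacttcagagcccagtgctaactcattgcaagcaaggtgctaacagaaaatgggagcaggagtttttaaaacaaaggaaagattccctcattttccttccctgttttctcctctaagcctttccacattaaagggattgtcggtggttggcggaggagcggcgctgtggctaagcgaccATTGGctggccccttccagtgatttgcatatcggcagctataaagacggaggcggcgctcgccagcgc
Pcdh10: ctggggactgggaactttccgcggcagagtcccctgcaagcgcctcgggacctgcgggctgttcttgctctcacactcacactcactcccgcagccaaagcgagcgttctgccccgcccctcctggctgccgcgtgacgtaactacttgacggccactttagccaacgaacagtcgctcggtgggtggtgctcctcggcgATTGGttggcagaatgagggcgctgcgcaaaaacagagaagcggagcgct
Pcdh17: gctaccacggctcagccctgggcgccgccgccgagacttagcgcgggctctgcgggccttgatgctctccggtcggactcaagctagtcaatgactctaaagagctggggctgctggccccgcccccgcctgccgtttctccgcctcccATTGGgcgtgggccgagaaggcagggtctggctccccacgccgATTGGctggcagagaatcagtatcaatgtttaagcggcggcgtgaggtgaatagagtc
Pcdh18: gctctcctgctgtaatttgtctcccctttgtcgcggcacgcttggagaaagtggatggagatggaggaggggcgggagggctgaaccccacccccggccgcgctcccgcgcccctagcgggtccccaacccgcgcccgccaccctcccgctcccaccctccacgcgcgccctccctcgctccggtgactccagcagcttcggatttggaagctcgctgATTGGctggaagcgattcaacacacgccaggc
Pcdh19: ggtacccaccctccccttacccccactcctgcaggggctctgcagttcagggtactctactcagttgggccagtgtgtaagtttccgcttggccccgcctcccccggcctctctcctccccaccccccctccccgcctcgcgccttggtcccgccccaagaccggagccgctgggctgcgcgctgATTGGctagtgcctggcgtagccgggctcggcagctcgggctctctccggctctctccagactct

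A CCAAT box on either strand was in 7 of the 8 promoters, against 34.5% of 27025 promoters of the same length. In Pcdh18, Pcdh10, Pcdh17, Pcdh19 and Pcdh8 the match nearest to the start ended 27, 45, 53, 60 and 63 bases before it. The longer ATTGGCTGG, a string chosen after these sequences were seen, was in Pcdh8, Pcdh17 and Pcdh18 and in 1.01% of all promoters. The AGGTCA core of nuclear receptor sites was in 0 of the 8 on either strand (13.8% of all promoters), as were its direct repeats with 5 or 2 bases between (0.0074% each), and the GC box GGGCGG was in 4 of 8 (32.9%). A TATAAA was in Pcdh8 alone of the 8 (13.0%). These counts describe the window printed and not the binding of any factor.

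Between 18 h and 78 h the effect of RA changed for many protocadherins, and mostly in 1 direction. The 18 h libraries are all of the earlier and the 78 h libraries all of the later series. A test of the difference between the RA effects at the 2 times over 12 libraries, called at an edgeR adjusted p under 0.01 with no limit on size, gave 23 lower and 1 higher of 60 tested, where 27.9% of all genes were called, 14.8% lower and 13.1% higher. Of the Pcdhg genes, 22 of 22 had a smaller RA effect at 78 h than at 18 h, by 0.45 to 2.63 on the log2 scale, and 14 were called. The called set also held 4 Pcdhb genes, 3 Pcdha genes, Pcdh19 and Pcdh11x. Pcdhgc4 moved by -1.90 ± 0.389 (SE), Pcdhgc5 by -1.61 ± 0.306, Pcdhac2 by -2.48 ± 0.477 and Pcdhgc3 by -0.76 ± 0.12. Pcdh10 was the single gene called in the other direction.

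**Figure D5:**
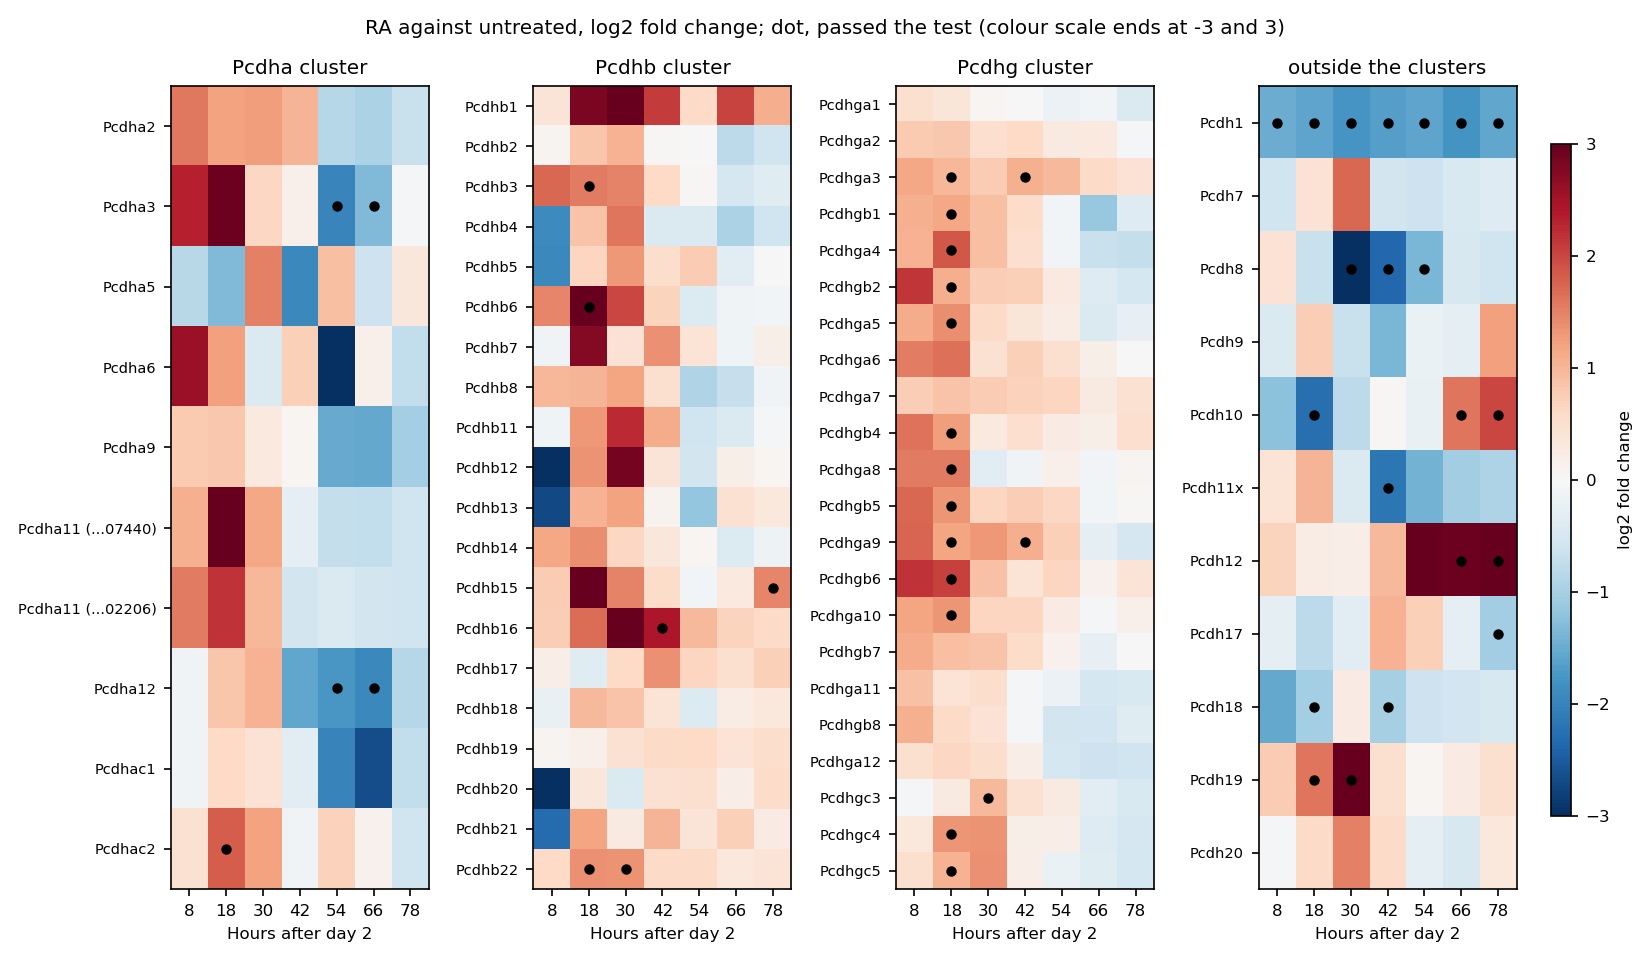
Log2 fold change of RA-treated over untreated organoids for the 63 kept protocadherins (vertical axis, by cluster) at the 7 times in hours (horizontal axis), computed without a filter on low counts, as a colour scale from -3 to 3 with a dot where a gene was called. The Pcdhg genes are mostly above 0 up to 42 h, with all 22 above 0 at 18 h, and mostly below 0 at 66 and 78 h.

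Cell states differed between the arms at both times. At 18 h markers of pluripotent cells (6 genes) summed to 658 to 739 CPM with and 1420 to 1530 CPM without RA. Of the 6, 3 were called lower (2.76% of all genes tested), namely Pou5f1, Otx2 and Fgf5. Nanog was at 142 ± 5.89 CPM with and 122 ± 10.3 CPM without RA, and Zfp42 at 156 ± 9.36 against 159 ± 11.7 CPM (SD, n = 3). Markers of endoderm (5 genes) summed to 15.8 to 18.7 CPM with and 2.56 to 3.02 CPM without RA at 18 h, and markers of neural progenitors to 471 to 498 CPM against 426 to 460 CPM. Markers of neural crest (5 genes) summed to 10.8 to 13.8 CPM with and 54.2 to 55.8 CPM without RA at 18 h, a difference in Foxd3 (0.711 ± 0.177 against 44.6 ± 0.987 CPM, SD, n = 3), while Sox10 and Sox9 were called higher with RA and the median log2FC of the 5 was 0.05. Markers of non-neural epithelium (5 genes) summed to 667 to 702 CPM with and 151 to 175 CPM without RA at 78 h. None of these lists had a member at 0 counts in either arm at 18 h. Their part in the protocadherin results was not tested.

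Of 24 genes known to act on the clusters (CTCF, cohesin and its loaders, DNA methyltransferases, Tet enzymes and silencing factors), 1 was called higher and 2 lower at 18 h (10.9% of all genes called), 0 higher and 2 lower at 30 h (8.45%), and 0 higher and 1 lower at 78 h (11.7%). Those lower were the DNA methyltransferases. Dnmt3b, which methylates alternate promoters of the clusters in the embryo, was at 1950 ± 126 CPM in untreated and 243 ± 15.2 CPM in RA-treated organoids at 18 h (SD, n = 3; log2FC -2.99 ± 0.0607 SE, edgeR adjusted p 1.3e-12) and was called lower at each of the 7 times. Dnmt3a was at 782 ± 49.9 CPM against 364 ± 27.5 CPM at 18 h (-1.09 ± 0.0606, adjusted p 1.5e-08) and was called lower from 18 to 54 h.

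Of 18 signalling partners of protocadherins (the WAVE complex, focal adhesion kinases, Ret, N-cadherin and others), 1 was called higher at 18 h (8.17% of all genes called higher), 2 higher and 1 lower at 30 h (8.45% called in either direction), and 1 higher at 78 h (7.66% called higher). Ret, a receptor kinase that associates with clustered protocadherins, was at 2.94 ± 0.664 CPM in untreated and 9.43 ± 1.16 CPM in RA-treated organoids at 18 h, and at 1.87 ± 0.0949 CPM against 17.1 ± 1.09 CPM at 30 h (SD, n = 3), and it was called higher at each time from 18 h on. Cdh2 (N-cadherin) was called higher from 30 to 54 h, with 22.1 ± 0.711 CPM against 76.6 ± 3.43 CPM at 30 h.

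Among 20 other members of the cadherin superfamily, 3 were called higher and 1 lower of 18 tested at 18 h (10.9% of all genes called), and 5 higher and 1 lower of 18 tested at 78 h (11.7%). Dsc2, a desmosomal cadherin, was higher with RA at each time from 18 h on, with 8.72 ± 0.808 CPM against 40.3 ± 0.768 CPM at 18 h (SD, n = 3). Cdhr1, a cadherin of photoreceptors, was called lower from 8 to 54 h, with 11.2 ± 0.235 CPM against 1.16 ± 0.256 CPM at 18 h. Fat4 and Dchs2, an atypical cadherin and a member of the family of its ligand, went opposite ways. At 78 h Fat4 was at 21.3 ± 2.97 CPM in untreated and 63.2 ± 14.5 CPM in RA-treated organoids, and Dchs2 at 16.9 ± 0.224 CPM against 3.99 ± 0.606 CPM, both called at each time from 42 h on.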

How the data were processed

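Poly(A) RNA of 45 libraries was sequenced. The authors trimmed reads with Trim Galore 0.5.0, removed abundant sequences with Bowtie 2 2.3.4.1, aligned with STAR to GRCm38 and counted reads per gene with featureCounts (Subread 1.6.2). They deposited raw counts of 54532 genes. Symbols and GRCm38 positions came from the reference annotation. Counts were scaled by TMM over the 45 libraries for CPM, and each comparison was tested with edgeR 4.0.16 (R 4.3.3, quasi-likelihood, filterByExpr with a minimum count of 10 and a total of 15, Benjamini-Hochberg adjustment) on its own 6 libraries, or 12 for the change of the RA effect. Library totals limit the precision, and 3 counts were taken as the floor, which covers counting error only because PCR copies were not marked.

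Replicate numbers came from the titles. The deviations of same-numbered libraries from their group means correlated at over 0.1 in all 3 pairs only at 66 h (0.52, 0.21 and 0.25). Only at 30 h (0.09, 0.22 and 0.22) did each library correlate best with the one of its own number. All pairs of replicate libraries differed beyond sampling noise (the lowest mean chi-square over genes was 1.97). Alternatives were DESeq2 1.42.0, other scalings, filters and thresholds, a replicate block, the library series, a fit of all libraries and each library left out. Genes named were the single and C-type genes, the 4 of highest mean level in each cluster, those called in at least 3 of the 7 RA comparisons and those next to the limit, others being named after their values were seen. The members and gene lists were chosen with earlier results of these data known. Tests were checked on simulated counts of fixed dispersion, with changes set only in genes at 1 CPM or more and no fold limit. Of 100 genes changed 2-fold, edgeR recovered 95 at 18 h and 84 for the change of the RA effect. The check does not cover genes at lower counts.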

Additional observations from a re-analysis of the deposited data

Results flagged for a closer look

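The RA effect at 78 h differed from that at 18 h for 24 of 60 protocadherins tested, by an interaction term in edgeR over 12 libraries at an adjusted p under 0.01. The effect at 78 h minus that at 18 h, on the log2 scale, was -4.65 for Pcdha11 (ENSMUSG00000007440, whose untreated 18 h libraries held 1 count in all, so that its size depends on the prior count), -3.04 for Pcdha3 and -2.48 for Pcdhac2. In the Pcdhb cluster it was -3.48 for Pcdhb6, -1.99 for Pcdhb3, -1.47 for Pcdhb2 and -1.0 for Pcdhb22. Among the Pcdhga genes it was -2.63 for Pcdhga4, -1.74 for Pcdhga9, -1.68 for Pcdhga5, -1.53 for Pcdhga8, -1.29 for Pcdhga12, -0.90 for Pcdhga11 and -0.84 for Pcdhga1. Among the Pcdhgb genes it was -1.71 for Pcdhgb6, -1.65 for Pcdhgb2, -1.61 for Pcdhgb1 and -1.34 for Pcdhgb5. The C-type genes Pcdhgc4, Pcdhgc5 and Pcdhgc3 had -1.90, -1.61 and -0.76. The single genes had -2.00 for Pcdh11x, -1.18 for Pcdh19 and 4.23 for Pcdh10. For Pcdha3, Pcdhb22, Pcdhga1 and Pcdhga11 the call was lost without 6 to 10 of the 12 libraries in turn, and for Pcdh11x without 4. That of Pcdh19 was lost in one fit of all 45 libraries. Such losses were followed for only some of the 24 genes, and further calls were lost. The count fell to 16 without untreated 18 h replicate 3. The 18 h and 78 h libraries are of different library series, and no explanation was tested.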

How the results depend on the processing

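The count of protocadherins called moved by over 1.5 times in these settings. With DESeq2 it was 3 at 8 h (edgeR 1), 9 at 30 h (5) and 3 at 66 h (5), and with one fit of all 45 libraries 10 at 8 h, 17 at 30 h and 14 for the change of the RA effect (24). Without the filter it was 3 at 8 h. With at least 10 counts in every library, which removes genes at low counts in 1 arm, it was 2 at 54 h (4), 1 at 66 h, 2 at 78 h (5), 12 in each comparison of 78 h with day 2 (50 untreated, 48 with RA) and 15 for the change of the RA effect. At an adjusted p under 0.05 with no fold limit it was 6 at 8 h, 13 at 30 h, 17 at 42 h (7), 13 at 54 h, 18 at 66 h and 25 at 78 h. With the library series as a term it was 3 at 30 h. The replicate block gave 0 at 8 h and moved no other count by over 1.5 times. At 66 h, where same-numbered libraries deviated alike in all 3 pairs, it kept the 5 calls and added 1. At 30 h it lost the calls of Pcdhb22 and Pcdhgc3. The count at 18 h (21) stayed within 1.5 times in each setting.

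Leaving out 1 library gave 0 to 6 at 8 h (0 without any 1 untreated library, 6 without RA replicate 3), 14 to 24 at 18 h (14 without untreated replicate 3), 3 to 24 at 30 h (24 without RA replicate 2, 3 without any other), 4 to 7 at 42 h (4 without untreated replicate 3), 2 to 6 at 54 h (2 without untreated replicate 3 or RA replicate 2), 4 to 5 at 66 h, 4 at 78 h, 50 to 53 and 47 to 50 for the comparisons with day 2 and 16 to 23 for the change of the RA effect. No result reversed. Of 635 single-gene values under other settings 30 lost their call, and of 582 with a library left out 89 did, mostly genes with few counts. The causes were not tested. With a limit of 1 CPM, 31 genes were kept. Depth limits the Pcdha genes and most Pcdhb genes before 30 h, which had few counts and were mostly not tested.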
